A study of Arabidopsis thaliana with 8 samples.

Results

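The 39 genes described here encode the core of nuclear auxin signalling in Arabidopsis thaliana: 29 Aux/IAA transcriptional repressors, 5 auxin receptors (TIR1, AFB1, AFB2, AFB3 and AFB5) and 5 activating auxin response factors (ARF5, ARF6, ARF7, ARF8 and ARF19). They were picked out by their locus names, but the list was chosen with earlier results of these data known. All 39 were found among the 25665 loci named on the array, by 40 probes, and all 39 were measured well enough to enter the comparison of 21443 loci.

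Auxin binds a TIR1 or AFB protein, the substrate-binding F-box subunit of a ubiquitin ligase, and thereby joins it to an Aux/IAA protein, which is then degraded. Aux/IAA proteins otherwise hold activating ARFs silent on the promoters they occupy. Many Aux/IAA genes are themselves switched on by ARFs, so they serve both as brakes on the pathway and as an early readout of it. A few Aux/IAA proteins lack all or part of the degron, the short stretch that the receptor grasps.

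The samples compared paps1-1, a mutant in the nuclear poly(A) polymerase gene PAPS1, with wild type (WT), both in the Ler background and both grown at 21 °C in long days. Whole seedlings with roots came from plates, at 11 days for paps1-1 and 9 days for WT, ages that the labels say match leaf development, so age and genotype cannot be told apart there. Main inflorescences without open flowers came from soil-grown plants of 30 days in both genotypes. Each tissue had 4 arrays, and each array held paps1-1 and WT RNA in 2 colours, with paps1-1 in Cy5 on replicates 1 and 2 and in Cy3 on replicates 3 and 4. The labels call the 4 arrays of a tissue biological replicates and do not say how many plants each RNA held. The mutant carries the paps1-1 allele, whose PAPS1 transcript was at 0.0023 ± 0.05 in seedlings and 0.10 ± 0.05 in inflorescences (log2 of paps1-1 over WT, not called), so its level does not check the labels. All values come from mixed tissue, where fewer cells of a type and less RNA per cell cannot be told apart.

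Every ratio below is log2 of paps1-1 over WT, relative to the other transcripts on the same array, so that a negative value means less relative signal in the mutant. Fitted ratios carry the moderated standard error (SE) of limma from 1 joint fit of all 8 arrays, 4 per tissue, with a dye term. Both tissues share 1 estimate of the spread per gene, so the SE is not the scatter of the 4 array ratios of a tissue. A gene was called higher or lower in the mutant when its p, adjusted by the Benjamini-Hochberg method over all loci, was below 0.05. Log2 intensities are the loess-normalized signals of a single probe in single samples, and they are compared only for the same probe. The median signal over local background per array was 2.66 to 5.02 in red and 3.35 to 5.51 in green, and between 57.3% and 64.2% of probes were well above background. Floral identity genes checked the tissue labels: the summed log2 intensity of 8 of them was 10.96 to 11.31 in paps1-1 seedlings and 11.30 to 11.64 in WT seedlings, against 17.28 to 17.37 in paps1-1 inflorescences and 17.10 to 17.14 in WT inflorescences.

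In seedlings 26 of the 39 genes were called, against 57.9% of all loci: 21 were lower in paps1-1 and 5 were higher, while 29.3% of all loci were called lower and 28.6% higher. In inflorescences 21 were called, against 53.7% of all loci: 9 were lower and 12 higher, against 27.5% and 26.2% of all loci. Of the 39 genes 8 were lower in both tissues and 3 were higher in both, where 17.3% and 15.5% of all loci were. None was higher in seedlings and lower in inflorescences, which held for 1.67% of all loci by limma, and none was so at an unadjusted p below 0.05. The median ratio of the 39 genes was −0.17 in seedlings and 0.08 in inflorescences, where the medians over all loci were −0.004 and 0.0009. Aux/IAA genes were mostly lower in seedlings and mixed in inflorescences, receptors were mostly lower in both tissues, and activating ARFs were split in both. Without inflorescence replicate 2, 13 of the 39 genes were called in inflorescences rather than 21, and 5 rather than 9 were lower. Median centring of the arrays in place of loess left 3 higher calls in seedlings and, over all loci, turned the share of higher among called loci to 32.4% in seedlings and 39% in inflorescences, against 49.4% and 48.7% with loess.

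**Figure D1:**
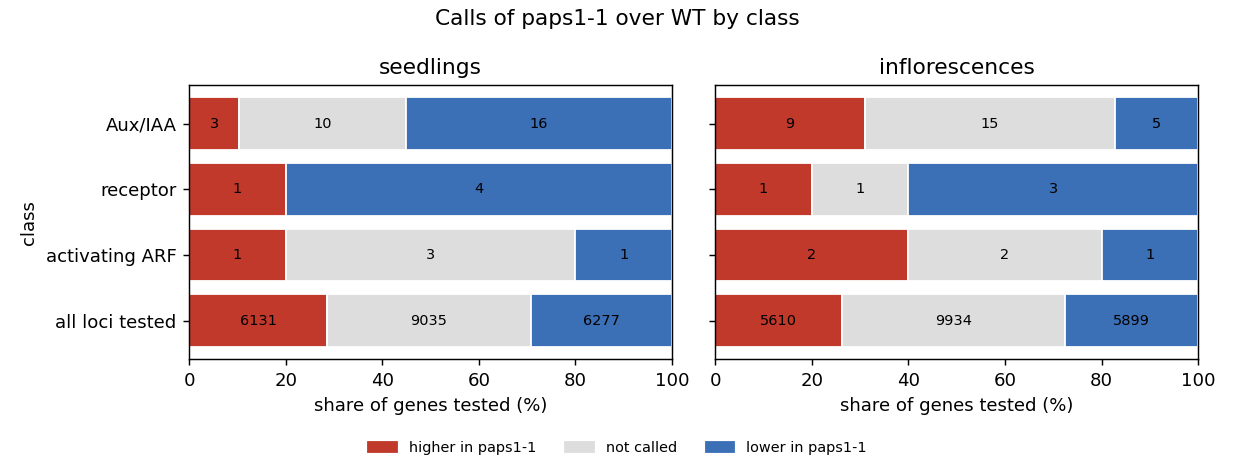
Horizontal bars give the share (%) of genes called higher in paps1-1 (red), not called (grey) and called lower in paps1-1 (blue) in each class and over all loci tested, for seedlings (left) and inflorescences (right), with gene counts printed on the bars. In seedlings 16 of 29 Aux/IAA genes and 4 of 5 receptors are blue, while in inflorescences 9 Aux/IAA genes are red and 5 blue.

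Among the receptors, 4 of 5 fell in seedlings and AFB1 rose, and in inflorescences 3 fell, AFB1 rose and AFB5 was not called. TIR1 (AT3G62980), the founding auxin receptor, had ratios of −0.57, −0.74, −0.39 and −0.32 on seedling replicates 1 to 4 and −0.28, −0.40, 0.06 and 0.01 on the inflorescence replicates. The seedling ratios were below 0 on all 4 arrays, whereas in inflorescences the deficit appeared only on the arrays with paps1-1 in Cy5. The fitted ratio was −0.50 ± 0.05 in seedlings (adjusted p = 1.38e-05) and −0.15 ± 0.05 in inflorescences (adjusted p = 0.0212). The inflorescence call ended with median centring, without the dye term and without inflorescence replicate 2 or 4. TIR1 averaged 11.2 ± 0.08 log2 intensity in paps1-1 seedlings and 11.7 ± 0.14 in WT seedlings (SD, n = 4 each), with no overlap.

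AFB5 (AT5G49980), the receptor tied to the synthetic auxin picloram, had ratios of −0.52, −0.48, −0.35 and −0.49 in seedlings and −0.16, −0.34, −0.03 and 0.05 in inflorescences. The fitted values were −0.46 ± 0.05 (adjusted p = 4.50e-05) in seedlings and −0.12 ± 0.05 (adjusted p = 0.0704) in inflorescences. TIR1 and AFB5 were the receptors whose effects differed between tissues, by −0.35 ± 0.07 (adjusted p = 0.00349) and −0.34 ± 0.07 (adjusted p = 0.00702), seedling minus inflorescence. The difference of TIR1 did not pass without the dye term.

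AFB2 (AT3G26810) and AFB3 (AT1G12820), which like TIR1 are targets of the microRNA miR393, fell by similar amounts in both tissues. AFB2 stood at −0.12, −0.33, −0.26 and −0.38 in seedlings and −0.22, −0.29, −0.16 and −0.16 in inflorescences, with fitted ratios of −0.27 ± 0.05 and −0.20 ± 0.05 (adjusted p = 0.00144 and 0.00822). AFB3 stood at −0.04, −0.18, −0.26 and −0.21 in seedlings and −0.18, −0.19, −0.23 and −0.26 in inflorescences, with fitted ratios of −0.17 ± 0.04 and −0.22 ± 0.04 (adjusted p = 0.00641 and 0.00206). Every one of these 16 array ratios was below 0, and the intensities of paps1-1 and WT did not overlap in either tissue. The AFB2 call in inflorescences ended without replicate 2, and median centring moved AFB2 to −0.44 in seedlings and −0.31 in inflorescences.

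AFB1 (AT4G03190, listed as GRH1), a receptor known for fast auxin responses in roots, was the exception. It rose in seedlings, with ratios of 0.27, 0.20, 0.25 and 0.33, and in inflorescences, with 0.21, 0.38, 0.24 and 0.35. The fitted ratios were 0.26 ± 0.05 (adjusted p = 0.000930) and 0.29 ± 0.05 (adjusted p = 0.000546), and their difference was −0.03 ± 0.07. Median centring ended the seedling call. AFB4 (AT4G24390), the remaining receptor gene of the family, which is not among the 39, fell by 0.34 ± 0.04 in seedlings and 0.22 ± 0.04 in inflorescences.

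Of the 29 Aux/IAA repressor genes, 16 fell, 3 rose and 10 were not called in seedlings, with a class median of −0.18 and medians of −0.27 to −0.07 on the single arrays. In inflorescences 5 fell, 9 rose and 15 were not called, with a median of 0.09 and array medians of 0.01 to 0.15. With median centring 5 Aux/IAA genes were called higher in inflorescences, among them IAA8, which loess did not call, while IAA1, IAA5, IAA11, IAA19 and IAA33 lost the call, so that 50% of the Aux/IAA calls in inflorescences were higher, against 64.3% with loess. Ratios of at least 0.5 below 0 were called in 10 of the 39 genes in seedlings, 9 of them Aux/IAA genes, whereas 6.03% of all loci met that rule. In inflorescences ratios of at least 0.5 either way were called in 4 of the 39 genes, against 11.1% of all loci. The 9 genes that met the rule in seedlings were IAA2, IAA3, IAA4, IAA5, IAA6, IAA7, IAA14, IAA16 and IAA29.

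**Figure D2:**
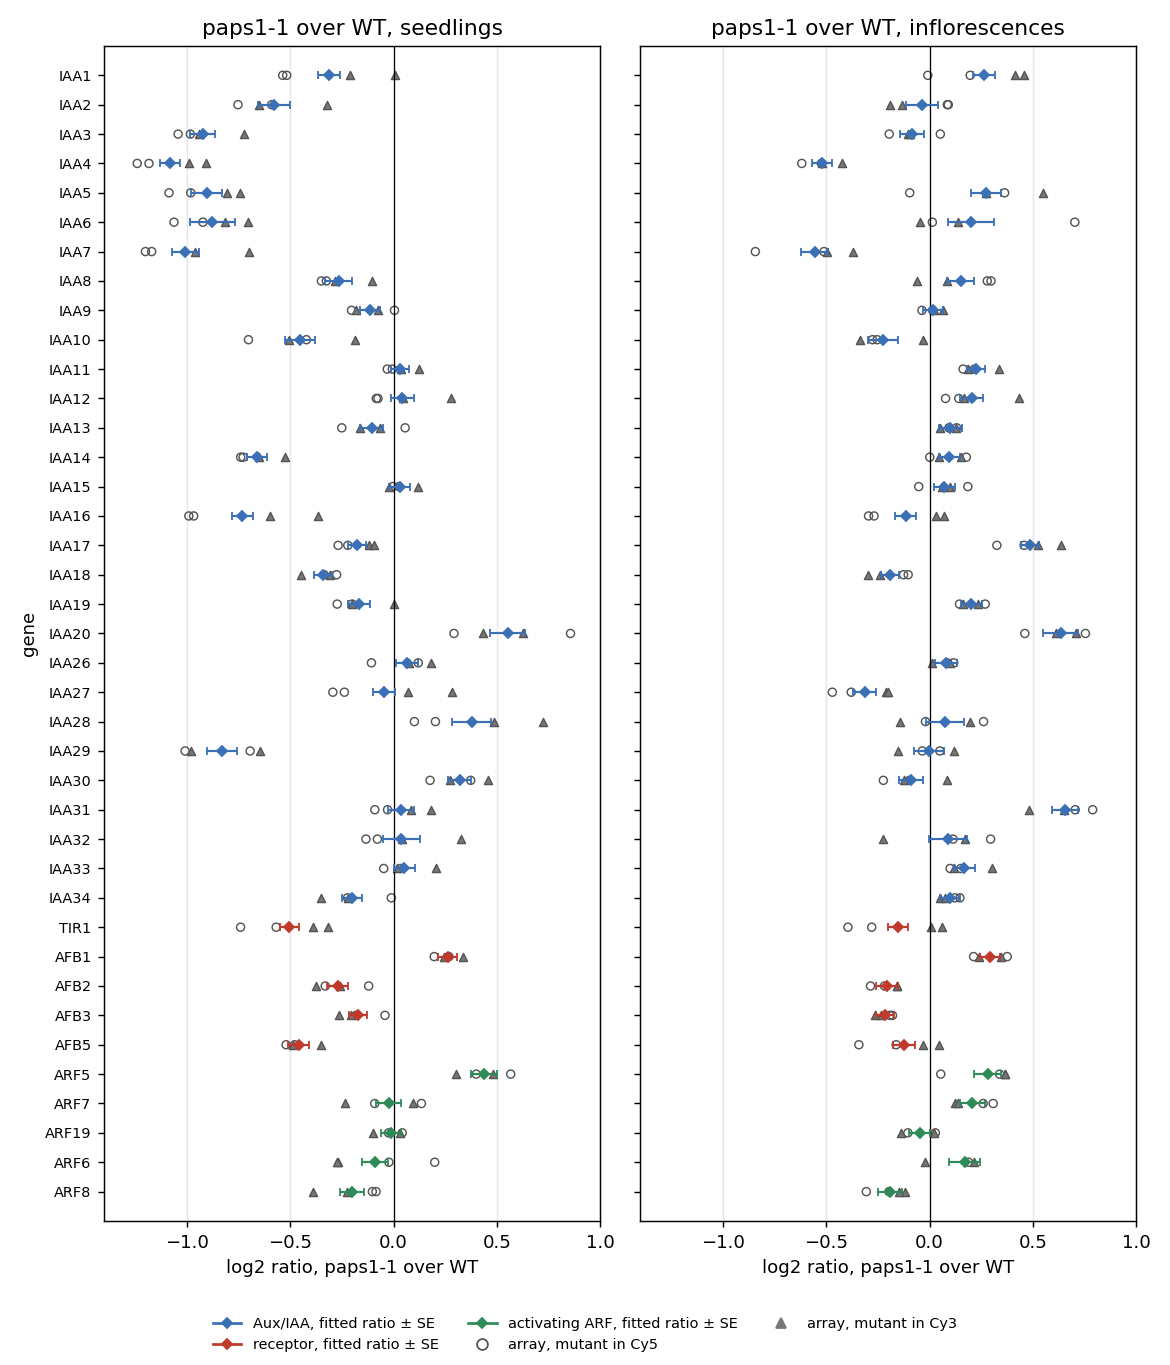
Log2 ratio of paps1-1 over WT (horizontal axis) for each of the 39 genes (vertical axis) in seedlings (left) and inflorescences (right). Open circles are arrays with paps1-1 in Cy5, triangles arrays with paps1-1 in Cy3, and coloured diamonds the fitted ratio ± SE by class. IAA3 to IAA7 lie near −1 in seedlings, while in inflorescences IAA4 and IAA7 are the 2 lowest genes and IAA20 and IAA31 the 2 highest.

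IAA4 and IAA7 were the lowest Aux/IAA genes in both tissues in the reported fit. In seedlings IAA6 was lower than both with normexp offset 0, the software's log ratio and the deposited value table, and IAA5 was lower than IAA7 with median centring as well. IAA4 (AT5G43700, listed as ATAUX2-11), an early auxin-induced gene, had ratios of −1.24, −1.18, −0.99 and −0.91 in seedlings and −0.62, −0.52, −0.52 and −0.42 in inflorescences. IAA7 (AT3G23050), in which dominant axr2 mutations block auxin responses, had −1.20, −1.17, −0.96 and −0.70 in seedlings and −0.84, −0.51, −0.50 and −0.37 in inflorescences. All ratios of the 2 genes were below 0, and paps1-1 and WT intensities did not overlap in either tissue. The fitted ratios of IAA4 were −1.08 ± 0.05 (adjusted p = 2.15e-07) in seedlings and −0.52 ± 0.05 (adjusted p = 1.38e-05) in inflorescences, and those of IAA7 −1.01 ± 0.06 (adjusted p = 1.37e-06) and −0.56 ± 0.06 (adjusted p = 6.76e-05). The effect was larger in seedlings for IAA4, by −0.56 ± 0.07 (adjusted p = 0.000256), and for IAA7, by −0.45 ± 0.09 (adjusted p = 0.00490).

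For a further 6 of the 9 genes, the fall was called in seedlings and no change was called in inflorescences, and in each the difference between tissues passed its own test. IAA3 (AT1G04240, listed as SHY2), a brake on cytokinin-controlled root meristem size, had ratios of −1.04, −0.98, −0.94 and −0.73 in seedlings, against −0.20, 0.05, −0.11 and −0.09 in inflorescences. Its fitted ratio of −0.92 ± 0.06 (adjusted p = 1.36e-06) in seedlings differed from −0.09 ± 0.06 in inflorescences by −0.84 ± 0.08 (adjusted p = 9.07e-05). The paps1-1 and WT seedling intensities, at 10.49 to 10.84 and 11.44 to 11.64, did not overlap.

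IAA14 (AT4G14550), the SOLITARY-ROOT gene needed to start lateral roots, had ratios of −0.73, −0.74, −0.65 and −0.52 in seedlings, against 0.0011, 0.18, 0.15 and 0.05 in inflorescences. The fitted seedling ratio was −0.66 ± 0.05 (adjusted p = 3.73e-06), and the difference from inflorescences was −0.76 ± 0.07 (adjusted p = 6.39e-05). IAA16 (AT3G04730), a close relative of IAA7 and IAA14, had −0.99, −0.97, −0.60 and −0.37 in seedlings, against −0.30, −0.27, 0.03 and 0.07 in inflorescences. In both tissues the IAA16 ratios were lower on the arrays with paps1-1 in Cy5. Its fitted seedling ratio was −0.73 ± 0.05 (adjusted p = 2.25e-06), and the difference was −0.62 ± 0.07 (adjusted p = 0.000225).

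IAA29 (AT4G32280), an Aux/IAA gene induced by shade and warmth, had ratios of −1.01, −0.69, −0.98 and −0.65 in seedlings, against 0.05, −0.04, −0.15 and 0.12 in inflorescences. In inflorescences its probe was well above background in paps1-1 on only 2 of the 4 arrays. The fitted seedling ratio was −0.83 ± 0.07 (adjusted p = 8.43e-06), with a difference of −0.83 ± 0.10 (adjusted p = 0.000305). IAA2 (AT3G23030) had −0.75, −0.59, −0.65 and −0.32 in seedlings, against 0.09, 0.09, −0.19 and −0.13 in inflorescences, and a fitted seedling ratio of −0.58 ± 0.08 (adjusted p = 0.000114). The signs of IAA2 in inflorescences followed the dye. The difference of IAA2 was −0.54 ± 0.11 (adjusted p = 0.00419). IAA6 (AT1G52830), in which dominant shy1 mutations are known, had −1.06, −0.92, −0.81 and −0.71 in seedlings, against 0.01, 0.70, 0.14 and −0.05 in inflorescences. Replicate 2 of the inflorescences stood above the other 3. The fitted seedling ratio of IAA6 was −0.88 ± 0.11 (adjusted p = 8.88e-05), and the difference was −1.08 ± 0.16 (adjusted p = 0.000734). With the software's log ratio these 2 values were −1.54 and −1.83.

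IAA5 (AT1G15580), an early auxin-induced gene, had the largest difference between tissues among the 39 in the reported fit. IAA6 passed it with normexp offset 0, the software's log ratio, the deposited value table and without inflorescence replicate 4. The IAA5 ratios were −0.98, −1.09, −0.75 and −0.81 in seedlings, against −0.10, 0.36, 0.28 and 0.55 in inflorescences. The fitted ratio was −0.91 ± 0.07 (adjusted p = 5.35e-06) in seedlings and 0.27 ± 0.07 (adjusted p = 0.0101) in inflorescences, a difference of −1.18 ± 0.10 (adjusted p = 4.45e-05). The seedling fall was seen on every array, while the inflorescence rise was absent on replicate 1 and its call ended with median centring and without replicate 2 or 4.

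IAA1, IAA17 and IAA19 were likewise called lower in seedlings and higher in inflorescences, which with IAA5 made 4 of the 39 genes, against 1.65% of all loci. IAA17 (AT1G04250, listed as AXR3), whose stabilized form makes plants insensitive to auxin, had ratios of −0.27, −0.22, −0.12 and −0.10 in seedlings, against 0.33, 0.46, 0.53 and 0.63 in inflorescences. Its 8 ratios thus took opposite signs in the 2 tissues without exception. The fitted values were −0.18 ± 0.04 (adjusted p = 0.00660) and 0.49 ± 0.04 (adjusted p = 1.44e-05), and the difference was −0.66 ± 0.06 (adjusted p = 6.76e-05). Median centring ended the seedling call of IAA17.

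IAA1 (AT4G14560) had a fitted ratio of −0.31 ± 0.05 in seedlings, against 0.26 ± 0.05 in inflorescences (adjusted p = 0.000592 and 0.00205). IAA19 (AT3G15540), the MSG2 gene of hypocotyl bending, had −0.17 ± 0.05 in seedlings, against 0.20 ± 0.05 in inflorescences (adjusted p = 0.0187 and 0.00799). The calls of these 2 genes were less firm. In both tissues the IAA1 ratios were lower on the arrays with paps1-1 in Cy5. IAA1 stood at 0.009 on seedling replicate 4 and −0.009 on inflorescence replicate 1, and IAA19 at 0.0045 on seedling replicate 4. For both genes the paps1-1 and WT intensities overlapped in each tissue. Median centring ended the inflorescence calls of both, that of IAA19 also ended without inflorescence replicate 2, and its seedling call ended without seedling replicate 1, 2 or 3.

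IAA20 (AT2G46990) was the highest of the 39 genes in seedlings, and IAA31 (AT3G17600) in inflorescences, except that IAA28 was highest in seedlings without seedling replicate 1 and IAA20 in inflorescences without inflorescence replicate 1. They are among the 6 Aux/IAA genes on the array (IAA20 and IAA30 to IAA34) whose proteins are known to lack the degron in full or in part. IAA20 had ratios of 0.86, 0.29, 0.43 and 0.63 in seedlings and 0.46, 0.75, 0.61 and 0.71 in inflorescences, with fitted ratios of 0.55 ± 0.09 (adjusted p = 0.000352) and 0.63 ± 0.09 (adjusted p = 0.000175). IAA20 was above 0 on all 8 arrays, and its paps1-1 and WT intensities did not overlap in either tissue.

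IAA31 had ratios of −0.03, −0.09, 0.08 and 0.18 in seedlings, against 0.71, 0.79, 0.48 and 0.65 in inflorescences. Its fitted ratio was 0.04 ± 0.06 in seedlings, against 0.66 ± 0.06 in inflorescences (adjusted p = 1.82e-05), a difference of −0.62 ± 0.09 (adjusted p = 0.000677). The rise of IAA31 was thus measured in inflorescences and not in seedlings. IAA30 (AT3G62100) went the other way, with 0.32 ± 0.06 in seedlings, against −0.09 ± 0.06 in inflorescences, and a difference of 0.41 ± 0.08 (adjusted p = 0.00425).

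Of the 6 genes without a full degron, 2 rose, 1 fell and 3 were not called in seedlings, with a median of 0.04, whereas 1 of the other 23 rose, 15 fell and 7 were not called, with a median of −0.31. In inflorescences 3 of the 6 rose and the other 3 were not called, and 6 of the 23 rose and 5 fell. Called in seedlings were 50% of the 6 and 69.6% of the 23, against 57.9% of all loci (28.6% higher, 29.3% lower). Called in inflorescences were 50% and 47.8%, against 53.7% of all loci (26.2% higher, 27.5% lower). The split by degron came from general knowledge of the proteins after the values were seen, and it was not tested. The 6 genes were dim, with mean WT intensities of 6.25 to 7.74 in seedlings and 6.16 to 7.66 in inflorescences on the log2 scale, and the offset of 50 added to every signal shrinks the ratios of dim probes. With the software's log ratio, IAA20 and IAA30 stood at 1.15 and 0.59 in seedlings and IAA31 at 1.12 in inflorescences. IAA33 was not well above background in either genotype of the seedlings, and the same was true of IAA15 outside this group. IAA34 was above background in seedlings, where it fell by 0.20 ± 0.05, a call that ended with the software's log ratio and with median centring. In inflorescences IAA34 was above background on 2 paps1-1 arrays and no WT array, and its ratio of 0.10 ± 0.05 was not called. It was called higher there with normexp offset 0, the software's log ratio and the deposited value table. Its difference of −0.30 moved to −1.09 with the software's log ratio.

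Among the other Aux/IAA genes, IAA8, IAA10 and IAA18 fell in seedlings by 0.27 ± 0.07, 0.45 ± 0.07 and 0.34 ± 0.04. IAA28 (AT5G25890), a repressor of lateral root formation, rose there by 0.38 ± 0.09 on the log2 scale (adjusted p = 0.00561), with array ratios of 0.10, 0.20, 0.49 and 0.72. Median centring ended the calls of IAA8 and IAA28. In inflorescences IAA10, IAA18 and IAA27 fell by 0.22, 0.19 and 0.31, and IAA11, IAA12 (BODENLOS, the partner of ARF5 in embryos) and IAA33 rose by 0.23, 0.20 and 0.17. The inflorescence calls of IAA10, IAA11, IAA12 and IAA33 each ended under some alternatives, among them the omission of inflorescence replicate 1 for all but IAA11, which lost its call with median centring. IAA9, IAA13, IAA15, IAA26 and IAA32 were called in neither tissue, with fitted ratios of −0.11 to 0.07 in seedlings and 0.02 to 0.10 in inflorescences.

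The difference between tissues, seedling minus inflorescence, was called for 18 of the 29 Aux/IAA genes, against 32.2% of all loci. It was below 0 for 16 of them and above 0 for IAA27 and IAA30, where 15.9% and 16.3% of all loci were called below and above 0. The call of IAA27 ended under 9 of the alternatives and that of IAA11 under 11. Over the 29 genes the difference had a median of −0.30, and over all loci of 8.47e-05. Receptors had 2 of 5 such calls, both below 0, and activating ARFs had none of 5. By limma's unadjusted p, 2 of the 5 ARFs were below 0.05, and the smallest adjusted p was 0.0631, for ARF7. Median centring called a difference at 2941 loci, 36.5% of them above 0, against 6905 loci and 50.7% with loess. Slide and tissue cannot be told apart, each tissue having been hybridised on a single slide, although both genotypes shared every array.

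**Figure D3:**
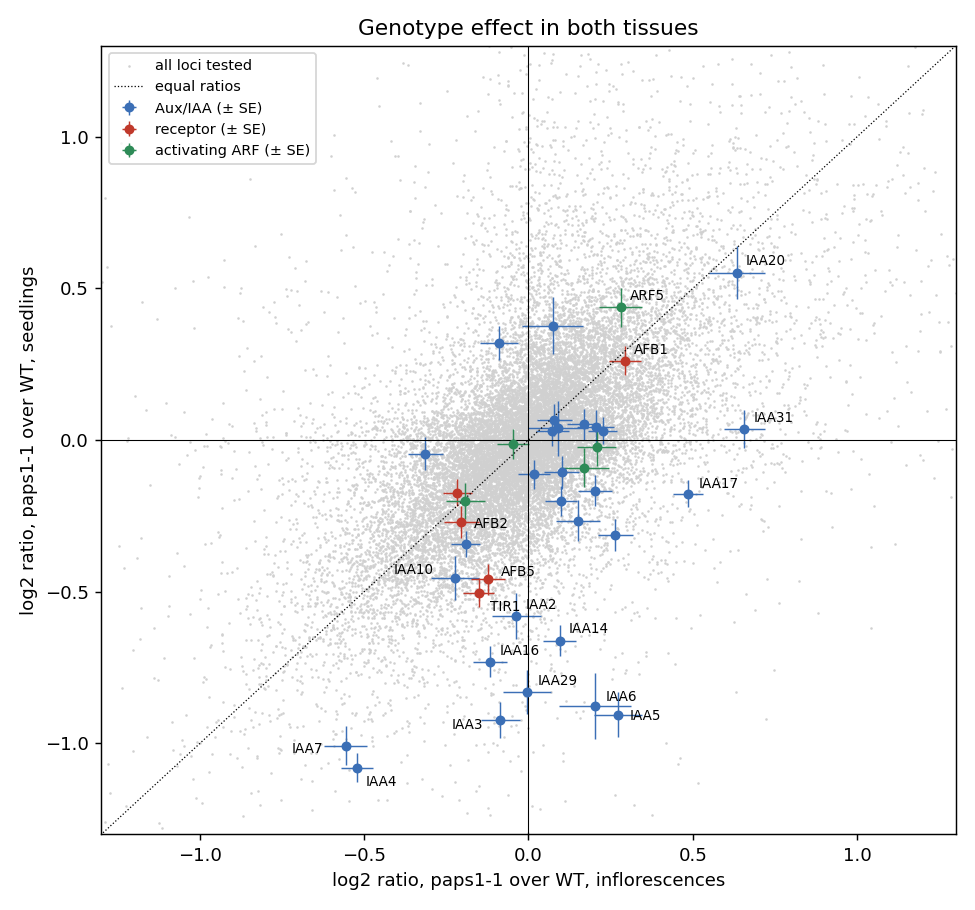
Fitted log2 ratio of paps1-1 over WT in inflorescences (horizontal axis) against seedlings (vertical axis) for Aux/IAA genes (blue), receptors (red) and activating ARFs (green), with SE bars, over all loci tested (grey; the axes stop at 1.3, beyond which some loci lie). Most blue points lie below the dotted line of equal ratios, IAA5 furthest at −0.91 in seedlings and 0.27 in inflorescences, while AFB1, IAA20, IAA4 and IAA7 keep their sign in both tissues.

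Aux/IAA genes that fell in seedlings were mostly those with more signal in seedlings than in inflorescences of WT. Of the 16 genes lower in paps1-1 seedlings, 13 had a higher mean WT intensity in seedlings than in inflorescences, with a median gap of 1.10 on the log2 scale. Of the 10 genes not called in seedlings, none did, and their median gap was −0.55. Of the 3 genes higher in paps1-1 seedlings, 1 did, with a median gap of −0.24. The same count was not made over all loci, so whether the pattern is particular to Aux/IAA genes is not known. For IAA14 the WT intensity was 11.2 in seedlings, against 7.27 in inflorescences, and for IAA29 it was 9.18 against 6.30. The WT seedling signal enters both quantities and the tissues lay on different slides, so this is a description without a test.

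**Figure D4:**
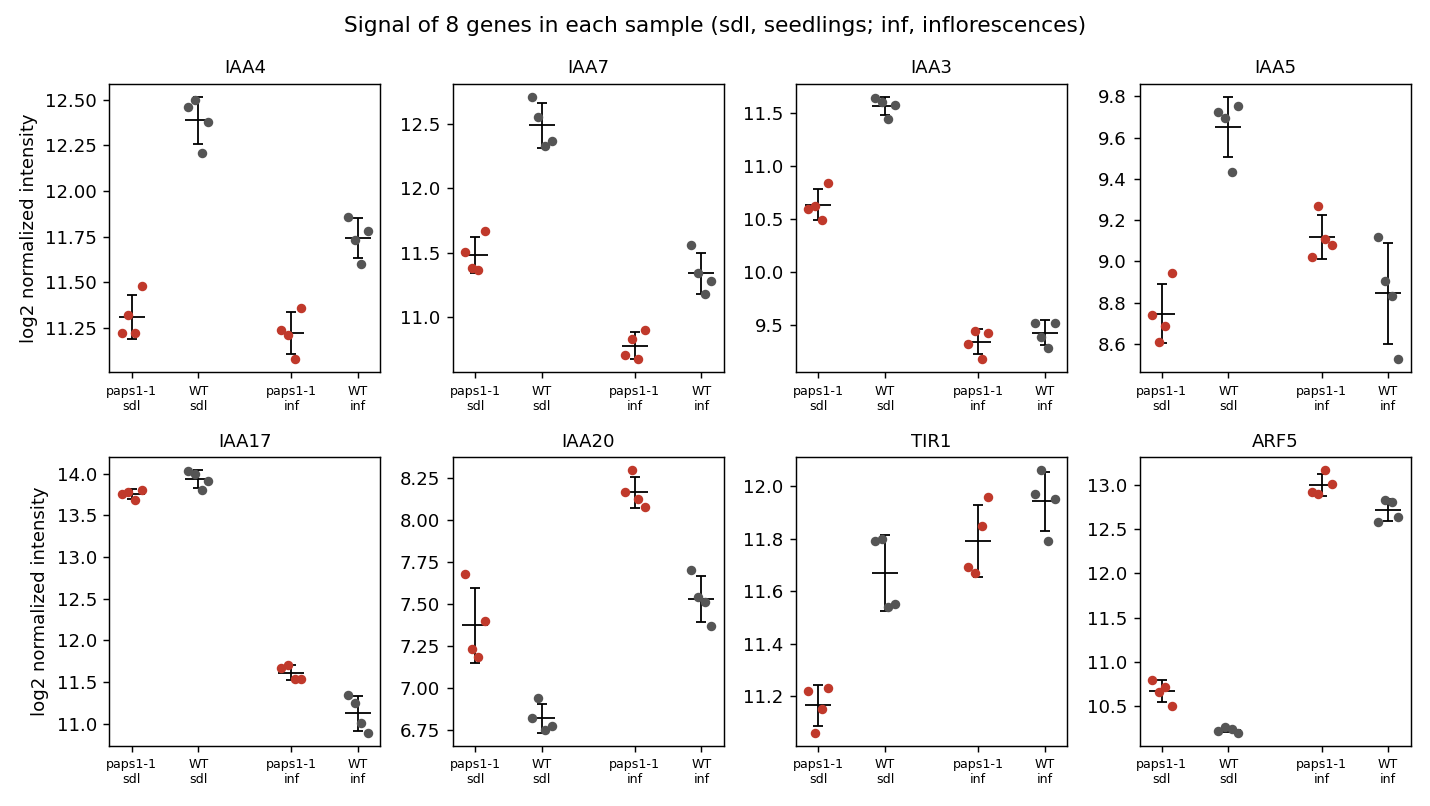
Normalized log2 intensity (vertical axis, own scale for each gene) of 8 genes in each sample of paps1-1 (red) and WT (grey), seedlings then inflorescences, with the mean and SD of 4 arrays in black. IAA3, IAA4, IAA5, IAA7 and TIR1 show paps1-1 seedlings below WT seedlings without overlap, IAA20 and ARF5 show paps1-1 above WT in both tissues, and IAA17 is above WT in inflorescences.

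In the RefSeq gene table of TAIR10.1, IAA14 and IAA1, IAA3 and IAA17, and IAA2 and IAA7 are adjacent pairs with no protein-coding gene between them. IAA17 rose by 0.49 on the log2 scale in inflorescences while its neighbour IAA3 stood at −0.09, and IAA7 fell by 0.56 while IAA2 stood at −0.04. In seedlings all 6 of these genes fell, IAA1 and IAA17 by 0.31 and 0.18 and the other 4 by 0.58 to 1.01. IAA8 was the gene with a second probe, which gave −0.24 in seedlings and 0.16 in inflorescences beside −0.27 and 0.15.

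Among the activating ARFs, ARF5 (AT1G19850, listed as MP), the MONOPTEROS factor that patterns the embryo axis, veins and flower primordia, rose in both tissues. Its ratios were 0.57, 0.40, 0.48 and 0.30 in seedlings and 0.34, 0.05, 0.36 and 0.37 in inflorescences, all above 0, and inflorescence replicate 2 stood below the other 3. The fitted ratios were 0.44 ± 0.06 (adjusted p = 0.000253) in seedlings and 0.28 ± 0.06 (adjusted p = 0.00450) in inflorescences. ARF5 averaged 10.67 log2 intensity in paps1-1 seedlings and 10.23 in WT seedlings, and 13.0 in paps1-1 inflorescences and 12.7 in WT inflorescences, without overlap in either tissue. Median centring moved its seedling ratio to 0.28.

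ARF8 (AT5G37020), which with ARF6 promotes stamen and petal growth under the control of miR167, was the activating ARF that fell. It had ratios of −0.08, −0.10, −0.23 and −0.39 in seedlings and −0.20, −0.31, −0.12 and −0.15 in inflorescences, with fitted values of −0.20 ± 0.06 (adjusted p = 0.0140) and −0.19 ± 0.06 (adjusted p = 0.0191). All 8 ratios were below 0, but the seedling call ended without replicate 3 or 4 and the inflorescence call without replicate 1 or 2, and median centring moved the seedling ratio to −0.37. ARF6 (AT1G30330) had 0.20, −0.02, −0.27 and −0.27 in seedlings, where it followed the dye, and 0.19, 0.22 and −0.02 on inflorescence replicates 1, 3 and 4, since its spot was flagged on replicate 2 and left out of the fit. It was called in neither tissue (−0.09 ± 0.06 and 0.17 ± 0.08).

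ARF7 (AT5G20730, listed as NPH4) and ARF19 (AT1G19220) act together in lateral root formation and, for ARF7, in bending towards light. ARF7 had ratios of 0.13, −0.09, 0.09 and −0.23 in seedlings, against 0.26, 0.31, 0.12 and 0.14 in inflorescences, and was called in inflorescences at 0.21 ± 0.06 (adjusted p = 0.0151). That call ended with normexp offset 0 and with the software's log ratio, where the ratio was 0.36 and 0.34, and without inflorescence replicate 2. ARF19 had −0.02, 0.04, 0.03 and −0.10 in seedlings and 0.03, −0.10, −0.14 and 0.02 in inflorescences. Its fitted ratios of −0.01 ± 0.05 and −0.05 ± 0.05 were called in neither tissue, although median centring called it in seedlings.

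The rest of the auxin pathway was read from whole gene lists. As a background for the counts, 28.6% of all loci were called higher and 29.3% lower in seedlings. In inflorescences these shares were 26.2% and 27.5%. Of 15 transport genes, 2 rose and 9 fell in seedlings, and 8 rose and 3 fell in inflorescences, with medians of −0.16 and 0.14. Called were 73.3% of this list in each tissue, against 57.9% of all loci in seedlings and 53.7% in inflorescences. The auxin exporter gene PIN4 fell by 0.26 ± 0.05 on the log2 scale in seedlings and rose by 0.71 ± 0.05 in inflorescences, a difference of −0.97 (adjusted p = 2.48e-05). The root exporter gene PIN2 (listed as EIR1) was highest in seedlings, at 0.74 ± 0.08, and the importer gene AUX1 lowest, at −0.56 ± 0.06. PIN7 was at −0.49 ± 0.05 in seedlings and −0.47 ± 0.05 in inflorescences. Of 10 auxin synthesis genes that could be tested of 14, 4 rose and 2 fell in seedlings, and 5 rose and 1 fell in inflorescences. That was 60% called in each tissue, near the shares of all loci. The aminotransferase gene TAR2 was at 0.47 ± 0.05 in seedlings. The flavin monooxygenase gene YUC8 was at 0.52 ± 0.07 in inflorescences and the aminotransferase gene TAA1 at 0.51 ± 0.04.

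GH3 genes, most of which encode enzymes that join auxin to amino acids and are early auxin-induced genes, did not follow 1 direction. Of 8 tested of 9, 4 rose and 3 fell in seedlings, and 3 rose and 5 fell in inflorescences. These were 87.5% and 100% of the tested genes, where 57.9% and 53.7% of all loci were called. GH3.3 rose by 0.99 ± 0.07 on the log2 scale in seedlings and fell by 0.22 ± 0.07 in inflorescences, a difference of 1.21 (adjusted p = 2.27e-05) opposite in sign to that of most Aux/IAA genes. GH3.6 (listed as DFL1) fell in both tissues, at −0.51 ± 0.06 in seedlings and −0.945 ± 0.06 in inflorescences. LBD genes, which act below ARF7 and ARF19 in lateral roots, had 3 of 4 members tested, of which LBD16 and LBD29 were called lower and LBD33 higher in seedlings. LBD16 was at −0.16 ± 0.06 there. LBD29 was well above background on none of the 4 paps1-1 and all 4 WT seedling arrays, and was at least 1.34-fold lower in paps1-1. LBD33, at 0.21 ± 0.06, was well above background on all 4 paps1-1 arrays but 1 WT array. LBD29 thus passed the probe filter only through WT seedlings, and LBD33 only through paps1-1 seedlings. The filter itself favours these directions, so the 2 calls are no independent support for them. In inflorescences all 3 LBD genes were not well above background in either genotype, and none was called by limma, nor at an unadjusted p below 0.05.

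TPL and its relatives, the co-repressors that Aux/IAA proteins recruit, had 4 of 5 members lower in seedlings and 1 in inflorescences. Over all loci 29.3% were called lower in seedlings and 27.5% in inflorescences. TPR4 (listed as WSIP2) fell by 0.55 ± 0.05 in seedlings and 0.17 ± 0.05 in inflorescences, and TPL by 0.42 ± 0.06 in seedlings. Of 10 repressing ARFs, 3 rose and 6 fell in seedlings, and 2 rose and 3 fell in inflorescences. Called were thus 90% and 50% of them, against 57.9% and 53.7% of all loci. ARF11 fell by 0.66 ± 0.05 in seedlings, and ARF10 and ARF16 rose in both tissues, at 0.31 and 0.26 in seedlings and at 0.26 each in inflorescences. Of 9 genes for the ubiquitin ligase that carries the receptors and for its activation by RUB, 2 were called in seedlings and 3 in inflorescences, all lower. These were 22.2% and 33.3% of the list, where 57.9% and 53.7% of all loci were called. None was called higher by limma, nor at an unadjusted p below 0.05. ASK1 (listed as SKP1) and AXR1 fell in both tissues, ASK1 by 0.27 ± 0.05 in each.

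Markers of roots and of green tissue moved with genotype in the same seedlings. Of 9 root markers measured of 10, 5 rose and 2 (GL2 and SHR) fell in seedlings, with a median of 0.57, while SCR and PLT2 were not called. Over all loci 28.6% were called higher and 29.3% lower there. The summed log2 intensity of the root list was 13.15 to 13.22 in paps1-1 seedlings and 12.65 to 12.92 in WT seedlings. In inflorescences, which hold no roots, it was still 12.34 to 12.54 in paps1-1 and 12.42 to 12.63 in WT. COBL9 and SHR had more WT signal in inflorescences (10.82 and 10.91) than in seedlings (9.31 and 10.14). The sum is thus no measure of root content alone. Of 9 green tissue markers 8 fell, with a median of −0.74 but array medians of −0.01 and −0.08 with paps1-1 in Cy5 and −1.31 and −1.18 with it in Cy3, and their summed log2 intensity was 19.61 to 20.19 in paps1-1 seedlings and 20.37 to 20.78 in WT seedlings. Every measured root and green tissue marker was well above background on some seedling arrays of each genotype, whereas LFY of the floral list was so on none. In inflorescences the root list had a median of −0.07 and the green list of −0.18, and EXPA7, PRP3 and PLT2 of the root list were well above background on no inflorescence array. The array medians of the green list there were 0.11 and 0.04 with paps1-1 in Cy5 and −0.63 and −0.57 with it in Cy3. The part of tissue proportions, and of the 2 days between the genotypes, in the seedling ratios of the auxin genes was not tested.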

How the data were processed

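Per the file headers, the authors' scanner files came from Agilent Feature Extraction 10.7.3.1 and hold, as deposited, the median intensity per spot and colour beside the median of the surrounding background, without normalization, and a log10 ratio of red over green processed intensity. The deposited value matrix holds log ratios, taken here as log2, that the authors had turned to paps1-1 over WT: its correlation with red over green was 0.961 to 0.966 where paps1-1 was in Cy5 and −0.971 to −0.958 where it was in Cy3. Its column medians were 0.018, 0.018, −0.016 and −0.016 in inflorescence replicates 1 to 4 and 0.016, 0.011, −0.015 and −0.02 in seedling replicates 1 to 4. Its log base is not stated; its slopes on the ratios computed here were 1.16 to 1.22, and how it was centred stays unknown. The submitters' processing notes list limma; their settings, the normalization and the labelling primer were not given in the sources used here. Whether changed poly(A) tails enter these ratios was not tested.

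Median signals were corrected with normexp (offset 50) and normalized by loess within each array, with 1417 control spots of 39102 and outlier spots given no weight (R 4.3.3, limma 3.58.1, jsonlite 2.0.0, and data.table at version 1.17.8). A probe was kept if well above background on all 4 arrays of a genotype in at least 1 tissue, with values on 6 or more arrays in all. Each locus was represented by its brightest probe that passed. Intensities in single samples were taken after quantile normalization of average intensity between arrays. No spot was saturated, and the number of arrays limits the precision.

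All 8 arrays were fitted together with 1 coefficient per tissue and a dye term (5 residual degrees of freedom, 4.86 added by moderation). The fit was also run on simulated data, whose outcome is not given here and is not used as support for the calls. The 39 genes and the pathway lists were chosen with earlier results of these data known; no list was tested as a set. Array ratios are given for genes called with a log2 ratio of at least 0.5 either way and for every receptor and activating ARF; of each pathway list and tissue at most the 2 highest and 2 lowest called genes are named, plus AFB4; 1 gene that met this rule is not reported here. Tissues share replicate numbers, and these were not taken as pairs: deviations of same-numbered arrays correlated at 0.119 to 0.320, but at −0.405 to −0.078 once the dye, which the numbers share, was fitted. Symbols came from the RefSeq gene list of TAIR10.1, which lists all 39 names; the files name no build, so no positions are given, and no sequences were used.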

Additional observations from a re-analysis of the deposited data

Results flagged for a closer look

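The effect of genotype differed between tissues for 20 of the 39 genes by limma's test of the difference (adjusted p below 0.05), seedling minus inflorescence on the log2 scale. Among Aux/IAA genes it was below 0 for IAA5 (−1.18), IAA6 (−1.08), IAA3 (−0.84), IAA29 (−0.83), IAA14 (−0.76), IAA17 (−0.66), IAA31 (−0.62), IAA16 (−0.62), IAA1 (−0.58), IAA4 (−0.56), IAA2 (−0.54), IAA7 (−0.45), IAA8 (−0.42), IAA19 (−0.37), IAA34 (−0.30) and IAA11 (−0.20). It was above 0 for IAA30 (0.41) and IAA27 (0.27). Among receptors it was −0.35 for TIR1 and −0.34 for AFB5.

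One array stood apart from the other 3 of its group in 1 of 77 groups checked, about 1 in 20 being expected by chance. ARF5 stood at 0.0542 on inflorescence replicate 2, against 0.34 to 0.37 on the others.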

How the results depend on the processing

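No called direction reversed under any alternative. Of the genes called, 19 of 26 in seedlings, 10 of 21 in inflorescences and 15 of 20 for the difference between tissues kept their call under every alternative run. With median centring in place of loess, 3512 loci and 3 of the 39 genes were higher in seedlings, 3449 loci and 5 Aux/IAA genes were higher in inflorescences, and the difference was called at 2941 loci, 1072 of them above 0. The seedling medians were then −0.24 over the 39 genes and −0.44 over receptors, and the median differences −0.45 over Aux/IAA genes and −0.15 over activating ARFs; the cause was not tested. Of the 2 differences above 0, 1 was left with normexp offset 0, the software's log ratio, median centring, the deposited value table or no dye term.

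Leaving out 1 array at a time gave 13 to 23 of the 39 genes called in inflorescences, 5 to 10 of them lower, with medians of 0.0146 to 0.0839 over the 39 genes and 0.0222 to 0.105 over Aux/IAA genes. The lowest of each came without inflorescence replicate 2. The differences above 0 then numbered 1 to 2. With the replicate block in place of the dye term, 19 of the 39 genes and 6147 loci differed between tissues, against 20 and 6905, and IAA11 lost its call.

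Each tissue lay on 1 slide, so slide could not be fitted as a block. Ratios of dim probes such as IAA15, IAA33 and, in inflorescences, IAA29 and IAA34 are limited by signal over background. Leaving out background outlier flags too, chosen after seeing the data, ended the call of the difference of IAA8. The planned search for degron and promoter letters was not run.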
